A study of Mus musculus with 6 samples.

Results

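The levels of 8 genes named for myelin or for the Pmp22 family were followed in Lgr6-lineage keratinocytes from denervated and normal mouse back skin: Mbp, Pmp22, Sox10, S100b, Mag, Cnp, Emp1 and Emp2. They were chosen by symbol, and all 8 were found among the 24982 rows of the gene count table. The choice was made with earlier results of the same libraries known, in which Mbp and Pmp22 had passed the comparison of the 2 sides, so the levels and side differences of the 8 genes are given as descriptions. The mice carried Lgr6-EGFP-Ires-CreERT2, which places a tamoxifen-inducible Cre and GFP under the control of the stem cell gene Lgr6, together with the Cre-dependent red reporter R26loxP-stop-loxP-tdTom. All received 20 µg of tamoxifen on postnatal day 42. The cutaneous nerves of the left back were removed by blunt dissection and those of the right back were left intact, and cells were taken 4 weeks after surgery, by labels that mention no sham dissection on the right. GFP-positive, Tomato-positive cells that stained for CD49f (the integrin Itga6) were sorted, which gave 1 library of poly(A) RNA per side from each of 3 animals (890, 892 and 899). Every denervated library thus comes from the operated left side, and the design does not separate denervation from the surgery or from the side of the body.

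Myelin is the layered membrane that Schwann cells wrap around axons in peripheral nerve. Its compaction needs myelin basic protein, encoded by Mbp, and the tetraspan membrane protein encoded by Pmp22. Sox10 is the transcription factor that specifies Schwann cells and melanocytes, Mag encodes a sialic acid-binding adhesion protein of the myelin sheath, Cnp a cyclic nucleotide phosphodiesterase of myelinating glia, and S100b a calcium-binding protein of glia. Pmp22 is also known as a growth arrest-specific gene of non-neural cells, and its closest relatives, Emp1, Emp2 and Emp3, encode epithelial membrane proteins. Mbp also has an upstream promoter whose transcripts, called golli, are made outside myelinating cells.

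The libraries held between 9610071 and 26167593 counts, and a floor of 3 counts corresponded to between 0.115 and 0.312 CPM (the count scaled to the library total), for counting error only. All 12 keratinocyte markers examined were measurable in every library, with a summed level of 60678 to 63129 CPM on the normal side and 58419 to 64696 CPM on the denervated side. Of 23 Schwann cell and glial markers beside the 8 genes, 16 had at most 3 counts in every library, among them Cdh19, Gjc3, Gldn and Foxd3. Of 15 neuron markers, 10 were at this floor, and of 6 endothelial markers 5. In bulk libraries fewer cells of a type and less RNA per cell cannot be told apart.

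The 8 genes fell into 3 classes of level. Emp1, Emp2, Pmp22 and Mbp were at or above 1 CPM in all 6 libraries, Sox10, S100b and Mag were at or below 3 counts in all 6, and Cnp lay between. TPM, an abundance that also accounts for transcript length, gave the order Emp1 (mean of 1205 TPM over the 6 libraries), Emp2 (276 TPM), Pmp22 (127 TPM) and Mbp (40.4 TPM). The ranges did not overlap between any of these neighbours in that order, with Emp1 at 985 to 1481 TPM, Emp2 at 245 to 300 TPM, Pmp22 at 94.9 to 179 TPM and Mbp at 34.9 to 46.9 TPM. Emp1 ranked at position 134 among the 24972 genes of the TPM table, Emp2 at position 453, Pmp22 at 1051 and Mbp at 3521. Emp3, which encodes the remaining epithelial membrane protein and is not among the 8, stood far below its relatives at 1.75 to 5.71 TPM.

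**Figure D1:**
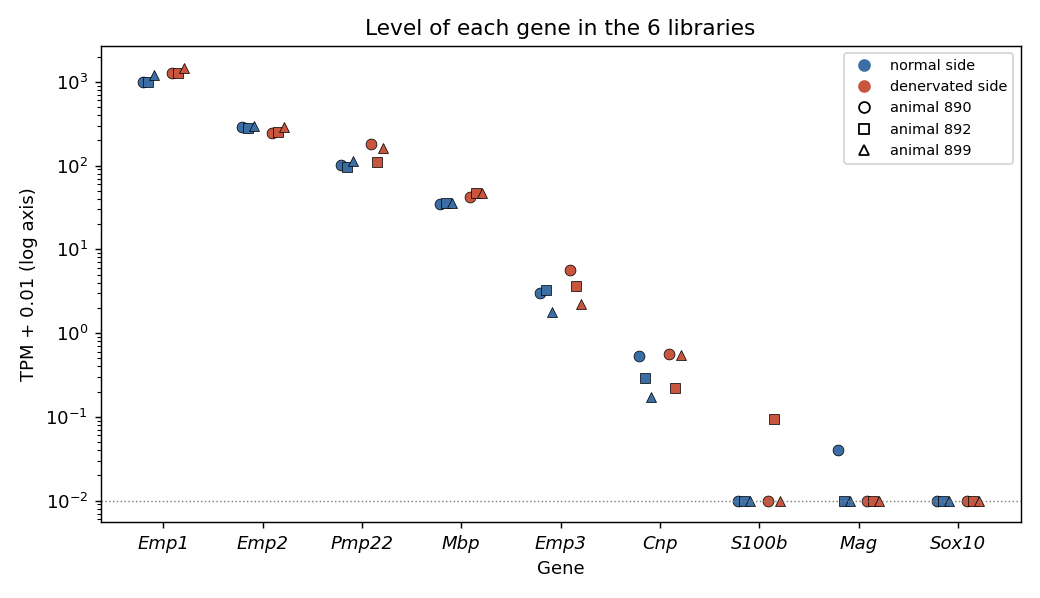
TPM plus 0.01 on a log axis for the 8 genes and Emp3 in each of the 6 libraries, blue for the normal and red for the denervated side, with a symbol for each animal and a dotted line where a TPM of 0 falls. Emp1, Emp2, Pmp22 and Mbp lie between 34.9 and 1481 TPM, whereas S100b, Mag and Sox10 lie at 0 in all but 1 library or in every library.

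The glial genes Sox10, Mag and S100b gave almost no reads. Sox10 (chromosome 15, 79154908 to 79165240, minus strand, mm10) had 1 count in the normal library of animal 892 and 0 in the other 5 libraries, out of 97557937 counts in all. Mag (chromosome 7, 30899176 to 30914873, minus strand) had 1 count in the normal library of animal 890 and 0 elsewhere. S100b (chromosome 10, 76253853 to 76261159, plus strand) had 1 count in the normal library of animal 899, 1 in the denervated library of animal 892 and 0 elsewhere. These levels lie under the floor on both sides, so no fold change was computed.

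Cnp (chromosome 11, 100574904 to 100591729, plus strand) gave 18, 8 and 3 counts on the normal side of animals 890, 892 and 899 and 7, 4 and 9 counts on the denervated side. The sides overlapped, at 0.217 to 0.688 CPM and 0.285 to 0.728 CPM. No library reached 1 CPM, and Cnp did not enter the test after the filter on low counts. Without that filter its paired log2 fold change was 0.44 ± 0.93 SE (edgeR's quasi-likelihood test, adjusted p = 0.901). In the annotation 8912 bases of Cnp overlap Dnajc7 on the opposite strand, a gene with up to 1867 counts in a library. The strand setting of the counting is not given in the sources used here, so these reads cannot be assigned to Cnp with certainty. S100b likewise overlaps Dip2a on the opposite strand.

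The side comparison asked whether these genes differed between denervated and normal skin within each animal. Levels are given as CPM after TMM scaling (a correction of library size for composition) with mean ± SD over 3 libraries per side. Fold changes and adjusted p-values come from edgeR's quasi-likelihood test with the animal as a block, fitted and adjusted over 12310 genes and called below 0.05. Of these genes 3.46% were called, 2.88% as higher and 0.577% as lower on the denervated side. Only 4 of the 8 genes passed the filter on low counts, and 3 of them, Mbp, Pmp22 and Emp1, were called as higher. In 3 of 3 animals the denervated library exceeded the normal one for the same 3 genes, which held for 19.5% of all tested genes. As the choice of the genes used this contrast, nothing is read from these counts. Without the block, edgeR called 0 of the 12310 genes, although 1537 had an unadjusted p below 0.05 (12.5%), and DESeq2 without the block called 367 (6.29% of those with an adjusted p). With the block, 18.2% of the tested genes had an unadjusted p below 0.05. Shares called under the alternatives named further on were 2.36% with library totals, 7.53% by DESeq2 with the block, and 3.11%, 2.01% and 7.74% in edgeR without animal 890, 892 and 899.

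Mbp (chromosome 18) stood at 92.8, 98.5 and 95.4 CPM on the normal side of animals 890, 892 and 899 and at 121, 131 and 122 CPM on the denervated side. Every denervated library was above every normal one, and the libraries of a side lay close together. The level went from 95.6 ± 2.84 to 125 ± 5.32 CPM (n = 3 per side). Its log2 fold change was 0.38 ± 0.07 SE, which is 1.30-fold (adjusted p = 0.0145 with the block and 0.146 without it, edgeR). The log2 difference was nearly equal in the animals, at 0.38, 0.41 and 0.36. TPM separated the sides as well, at 34.9 to 36.0 on the normal and 42.5 to 46.9 on the denervated side. Without animal 892 the log2 fold change was 0.38 and the call was lost (adjusted p = 0.0751).

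The transcript lengths in the deposited per-sample files bear on which Mbp transcripts these reads came from, a readout that the choice of genes did not use. Salmon's gene-level output gives for each gene the mean length of its transcripts, weighted by their abundance. This mean was 4769, 4677 and 4638 bases for Mbp in the normal libraries of animals 890, 892 and 899. It was 4716, 4665 and 4709 bases in the denervated libraries. In the GENCODE M21 annotation the longest Mbp transcript, Mbp-205, has 4797 bases in 4 exons and starts at the upstream end of the gene. The next longest, Mbp-201, has 2492 bases and starts 16 bases further on. Transcripts that start downstream, at least 79324 bases from the upstream start, where the classic myelin transcripts begin, reach at most 2070 bases.

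A mean as long as that measured therefore requires, with these annotated lengths, that Mbp-205 made up at least 93.1% of the Mbp transcripts in each library. The lower bound was highest, at 98.8%, in the normal library of animal 890. The transcript set that the authors used is not given in the sources used here, and it was not identical to GENCODE M21, since S100b had 1661 bases in the files and 1484 in GENCODE. The bound holds only if the authors' set held similar lengths for Mbp. The mean length did not separate the sides, at 4695 ± 67.2 bases on the normal and 4696 ± 27.7 bases on the denervated side (n = 3, exact two-sided permutation p = 1.0, where 0.1 is the lowest that 3 against 3 libraries allow). Within animals it was longer on the denervated side in 1 of 3 (exact sign-flip p = 1.0 over the pairs). In the annotation a ribosomal protein pseudogene, Rpl21-ps8, overlaps 483 bases of Mbp on the opposite strand.

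**Figure D2:**
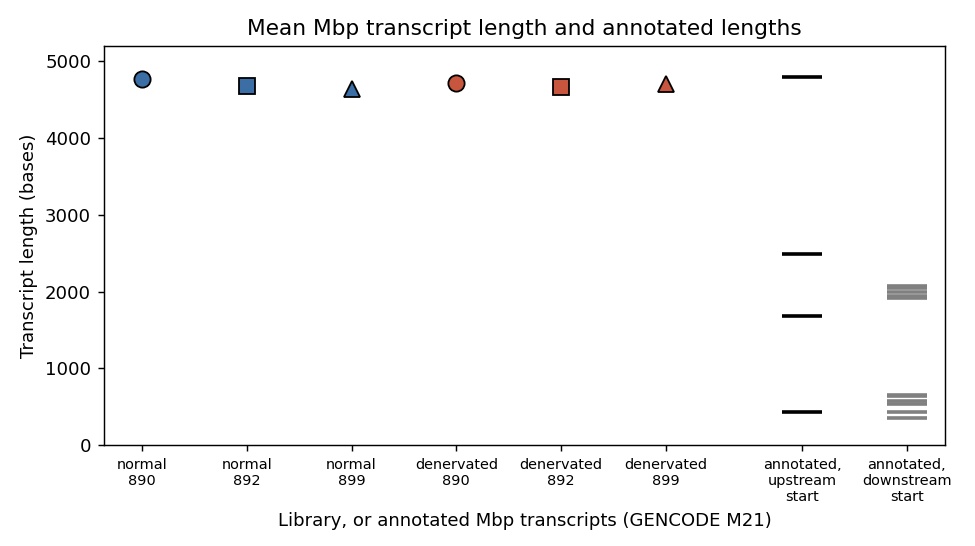
Abundance-weighted mean length of Mbp transcripts in bases in each of the 6 libraries (blue normal, red denervated, symbols by animal) beside the lengths of annotated transcripts with an upstream start (black bars) and with a downstream start (grey bars). The libraries lie between 4638 and 4769 bases, close to the annotated transcript of 4797 bases and above the next longest of 2492 bases.

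The calls were not the same across the Pmp22 family. Emp1 and Pmp22 were called as higher on the denervated side, and Emp2 was not called. The 250 bases before an annotated start of each of these 3 genes are shown, so that the called and the uncalled family members can be set side by side. They are from RefSeq (GRCm38.p6, the mm10 assembly), from which windows were read for 6 of the 8 genes, and Sox10 had no entry. Each is written 5′ to 3′ on the strand of the gene, at chr6:135362681-135362930 for Emp1 (plus strand), chr11:63128732-63128981 for the most upstream of 4 Pmp22 starts (plus strand) and chr16:10313969-10314218 for Emp2 (minus strand), with capitals for the motifs described next. The outermost bases at both ends of the Emp1 window lie in untranslated exons of 1 GENCODE transcript that starts further upstream.
Emp1: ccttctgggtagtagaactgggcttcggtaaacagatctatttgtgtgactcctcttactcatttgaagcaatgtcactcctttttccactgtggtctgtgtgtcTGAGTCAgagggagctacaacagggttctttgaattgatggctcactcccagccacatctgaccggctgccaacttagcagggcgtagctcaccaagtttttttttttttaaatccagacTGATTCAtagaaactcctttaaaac
Pmp22: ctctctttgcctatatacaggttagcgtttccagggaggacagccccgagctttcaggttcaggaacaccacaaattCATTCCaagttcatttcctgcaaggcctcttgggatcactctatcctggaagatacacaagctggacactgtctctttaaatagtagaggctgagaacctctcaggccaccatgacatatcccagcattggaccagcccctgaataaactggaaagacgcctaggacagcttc
Emp2: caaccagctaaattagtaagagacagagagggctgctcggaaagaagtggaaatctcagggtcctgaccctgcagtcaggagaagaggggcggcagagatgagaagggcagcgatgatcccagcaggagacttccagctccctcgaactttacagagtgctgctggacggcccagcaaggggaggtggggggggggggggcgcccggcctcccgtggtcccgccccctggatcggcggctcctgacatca

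Both strands were searched for TGANTCA, the AP-1 motif, GGAATG, the motif of TEAD factors, and TGACGTCA, the cyclic AMP response element, which do not overlap in these sequences. The window of Emp1 held TGAGTCA at −145 and TGATTCA at −25 from the start, both AP-1 matches. That of Pmp22 held CATTCC, the TEAD motif on the opposite strand, at −173. The same TEAD letters lay at −65 in the window of Cnp and at −227 in 1 of 3 windows of Mag, genes at or near the floor. The window of Emp2 held none of the 3 motifs, and neither did the other 3 listed starts of Pmp22, the second start of Emp1, the other Mag windows or that of S100b. Of 32851 RefSeq windows of the same length, 6.75% held the AP-1 motif, 12.6% the TEAD motif and 1.55% the cyclic AMP element. These shares are per window, whereas several windows were searched for Pmp22, Emp1 and Mag, which gives such genes more room for a match. A match describes letters and is not a measured site of binding. Which of the listed starts of Pmp22 or Emp1 these cells use was not tested, so the windows shown may not be the ones in use.

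Emp1 (chromosome 6, 135362545 to 135383173, plus strand) stood at 1408, 1444 and 1776 CPM on the normal side of animals 890, 892 and 899 and at 1943, 1915 and 2082 CPM on the denervated side. All denervated libraries were above all normal ones, and animal 899 had the highest level on both sides. The level went from 1542 ± 203 to 1980 ± 89.4 CPM (n = 3 per side). The log2 fold change was 0.37 ± 0.09 SE, 1.29-fold (adjusted p = 0.0442 with the block and 0.211 without it, edgeR), and it rose by 0.47, 0.41 and 0.23 in the 3 animals. This call lies near the threshold. It was lost when libraries were scaled by their totals alone (adjusted p = 0.0750), without animal 890 (0.271) and without animal 892 (0.190).

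Pmp22 (chromosome 11, 63128982 to 63159547, plus strand) stood at 92.1, 90.7 and 106 CPM on the normal side and at 175, 108 and 147 CPM on the denervated side, in the same order of animals. The lowest denervated library, that of animal 892, lay just above the highest normal one, that of animal 899, and in TPM these libraries changed order, at 111 and 114 TPM. The level went from 96.2 ± 8.45 to 143 ± 33.5 CPM (n = 3 per side). The log2 fold change was 0.55 ± 0.11 SE, 1.47-fold (adjusted p = 0.0145 with the block and 0.186 without it, edgeR). Its size varied between animals more than that of Mbp, with log2 differences of 0.93, 0.26 and 0.47. Without animal 890 the log2 fold change was 0.36, still called (adjusted p = 0.00869). The mean length of Pmp22 transcripts, 1801 to 1828 bases over the libraries, overlapped between the sides (exact unpaired permutation p = 0.4), and was longer on the denervated side by 11.6, 8.40 and 5.19 bases in animals 890, 892 and 899 (exact sign-flip p = 0.25 over the pairs, the smallest that 3 pairs allow).

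Emp2 (chromosome 16, 10281749 to 10313968, minus strand) stood at 553, 562 and 587 CPM on the normal side and at 505, 510 and 544 CPM on the denervated side. Here every denervated library was below every normal one, while in TPM the sides overlapped (284 to 300 against 245 to 289). The level was 567 ± 17.9 and 520 ± 20.9 CPM (n = 3 per side), and the log2 fold change of −0.13 ± 0.08 SE was not called (adjusted p = 0.412 with the block, 0.540 without it, edgeR). Its 95% interval ran from −0.29 to 0.04, below the interval of Emp1 (0.17 to 0.57) and that of Pmp22 (0.33 to 0.78). The genes were chosen with this contrast known, so the intervals are a description, and the difference between the genes was not tested. Over all tested genes, libraries of the sides did not overlap in 9.76% as higher and in 9.21% as lower on the denervated side, so separation of 3 from 3 libraries is common in these data.

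**Figure D3:**
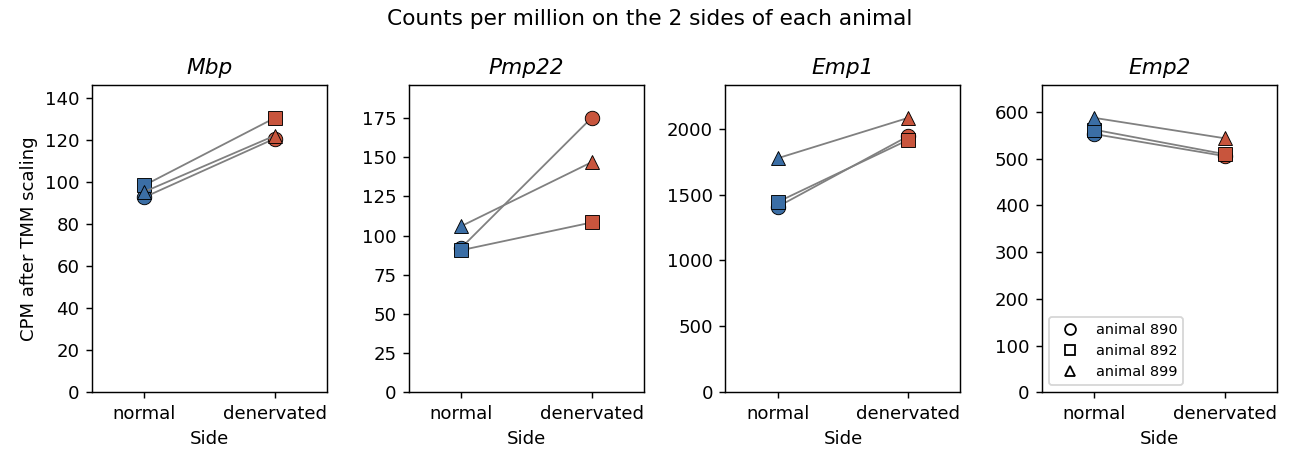
CPM after TMM scaling of Mbp, Pmp22, Emp1 and Emp2 on the normal (blue) and denervated (red) side, each line joining the 2 libraries of an animal, with axes that start at 0. Lines rise in 3 of 3 animals for Mbp, Pmp22 and Emp1, most unevenly for Pmp22 (log2 differences of 0.26 to 0.93), and slope down in 3 of 3 for Emp2, which was not called.

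Ratios within a library do not depend on how libraries are scaled to each other. The TPM ratio of Emp1 to Emp2 was 3.43, 3.47 and 4.07 in the normal libraries of animals 890, 892 and 899 and 5.19, 5.08 and 5.13 in the denervated ones. The denervated libraries lay close together and above all normal ones. The ratio of Pmp22 to Emp2 was 0.352, 0.334 and 0.379 on the normal and 0.733, 0.440 and 0.562 on the denervated side, again without overlap. The ratio of Emp1 to Pmp22 overlapped, at 9.76 to 10.8 on the normal and 7.08 to 11.5 on the denervated side. Emp1 made up 71.6% to 74.6% of the summed TPM of Pmp22, Emp1, Emp2 and Emp3 on the normal side and 74.7% to 77.8% on the denervated side. The share of Emp2 was 18.3% to 20.8% and 14.4% to 15.3%. These ratios come from the contrast used to choose the genes and are given as a description, and the difference between the members was not tested.

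**Figure D4:**
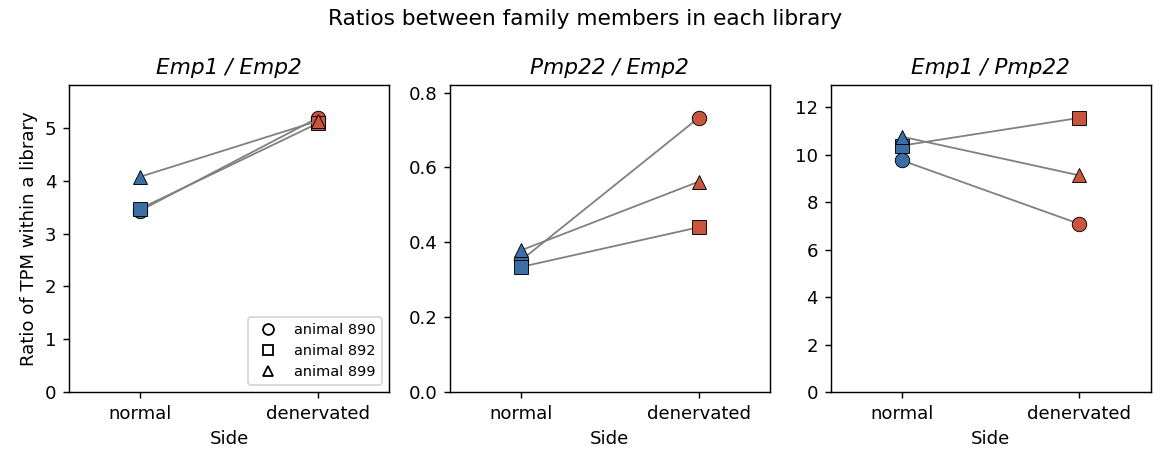
Ratio of TPM between 2 family members within each library, normal side at left and denervated side at right of each panel, with a line per animal and axes that start at 0. Emp1 over Emp2 and Pmp22 over Emp2 are higher in the denervated library of each animal, and Emp1 over Pmp22 moves in different directions.

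More distant relatives of the family were measured beside it. Of 9 PMP22 and claudin-like relatives, 3 passed the filter on low counts and none was called by edgeR with the block (0 at an unadjusted p below 0.05 and 0 by DESeq2 with the block). Perp, a desmosomal tetraspan protein gene and p63 target, was the most abundant at a mean of 3292 TPM, with 3037 ± 61.0 and 3024 ± 180 CPM on the 2 sides. Cldnd1 stood at 155 ± 7.80 and 173 ± 19.1 CPM. Emp3 stood at 1.13 ± 0.0406 and 1.34 ± 0.555 CPM, too low to resolve a difference of the size seen for Emp1 (95% interval of its log2 fold change −0.76 to 1.16). Lim2, Tmem114, Tmem178 and Tmem235 had at most 3 counts in any library.

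In the authors' deposited table, 7.27% of 6752 genes with an adjusted p lay below 0.05. That table gives log2 fold changes of 0.39 for Mbp (adjusted p = 0.00285), 0.55 for Pmp22 (0.000689), 0.37 for Emp1 (0.000106) and −0.13 for Emp2 (0.394). It gives no adjusted p for Cnp, S100b or Mag and no fold change for Sox10. These are values from the same libraries and add no independent measurement.

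**Figure D5:**
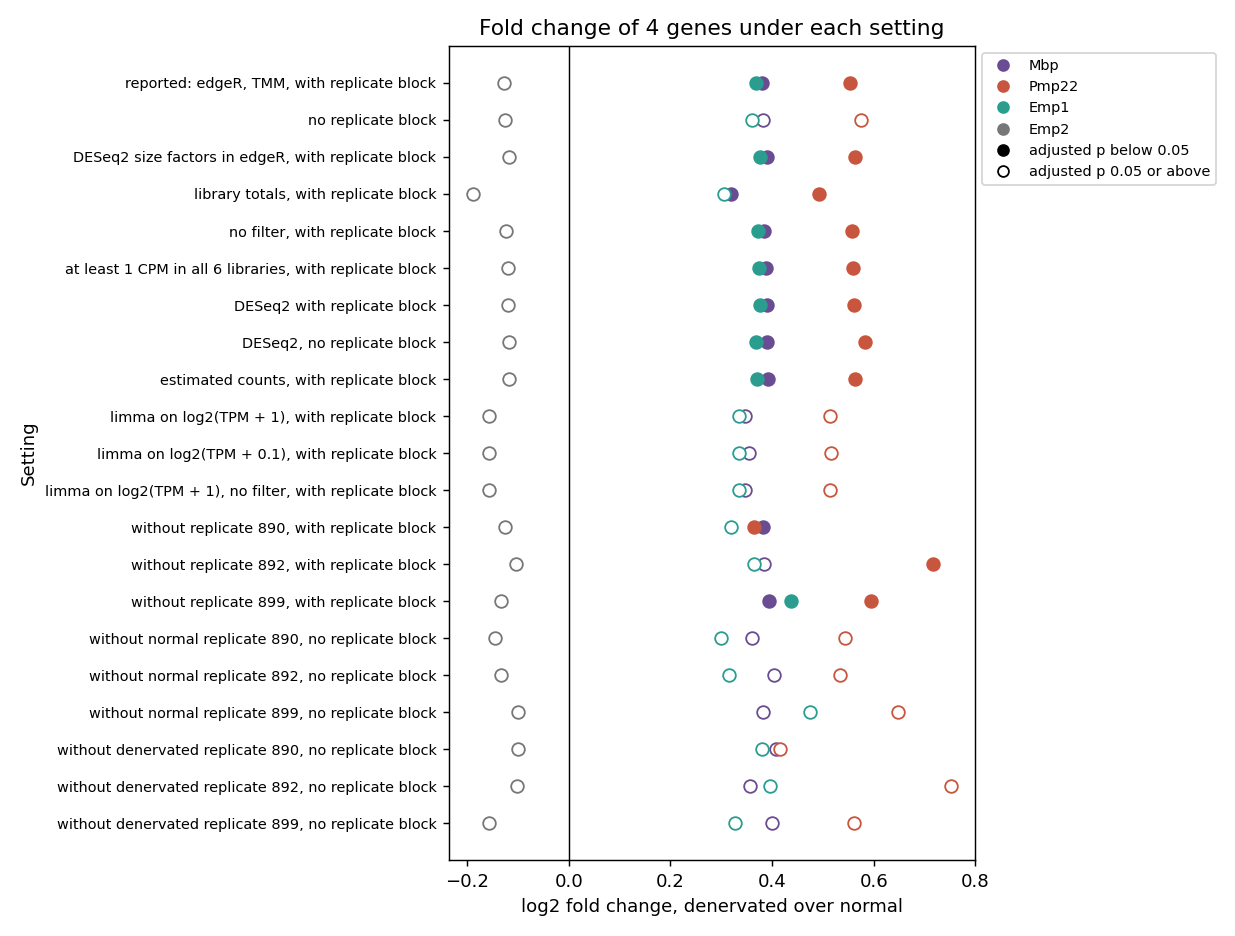
Log2 fold change (denervated over normal) of Mbp, Pmp22, Emp1 and Emp2 under the reported setting and 20 alternatives, 1 per line, filled where the adjusted p was below 0.05 and open otherwise. Mbp, Pmp22 and Emp1 lie right of 0 and Emp2 left of 0 in each of them, while most points without the animal as a block, and those from limma on TPM, are open.

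The other genes linked to myelin were examined in 3 lists. Of 34 genes for myelin proteins and lipid enzymes that epithelia also make, 25 entered the test and none was called by edgeR with the block, where 5 of the 25 had an unadjusted p below 0.05 against 18.2% of all tested genes, and DESeq2 with the block called 1, Ndrg1. Their median log2 fold change was −0.02, the same as over all tested genes (−0.02). The most abundant were the tetraspanin gene Cd9 (mean of 1541 TPM, 892 ± 62.2 and 895 ± 6.38 CPM on the normal and denervated side), Plp2, a proteolipid gene (491 TPM), and Ndrg1, a stress-responsive gene mutated in a demyelinating neuropathy (415 TPM). Ndrg1 stood at 626 ± 56.6 and 769 ± 114 CPM (log2 fold change 0.29 ± 0.08 SE, adjusted p = 0.0672, edgeR). Without animal 899, where 7.74% of all tested genes were called, edgeR called 4 of 26 in this list. Cers3, Mpzl3 and Ndrg1 were higher and Fa2h was lower on the denervated side.

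Few of the Schwann cell and glial markers stood above the floor. Of 23 markers, 6 entered the test and none was called by edgeR with the block, with 2 at an unadjusted p below 0.05 (Ngfr and Prx, both lower, against 18.2% of all tested genes) and 0 called by DESeq2 with the block. Most of the list's signal came from the transcription factor genes Egr2 (mean of 110 TPM) and Pou3f1 (92.6 TPM) and the adhesion molecule gene L1cam (20.3 TPM). On library totals without TMM scaling, the summed level of the 23 markers was 365 to 450 CPM on the normal and 338 to 393 CPM on the denervated side, with the denervated library above the normal one in 1 of 3 animals, whereas Mbp and Pmp22 were higher in 3 of 3. The log2 ratio of the summed level was −0.18 on library totals and −0.12 after TMM scaling. Pou3f1 was called as lower without animal 899. Of the 12 keratinocyte markers none was called by edgeR with the block. Cdh1, Itga6 and Sfn had an unadjusted p below 0.05, all higher, against 18.2% of all tested genes. Cdh1 and Sfn were called as higher by DESeq2 with the block and by edgeR without animal 899, where 7.53% and 7.74% of all genes were called. Itga6, the sort marker, went from 1425 ± 17.9 to 1624 ± 37.2 CPM.

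Markers of other cells were detected as well, and some genes that Langerhans cells express stood above Mbp. On library totals, summed levels were 18.7 to 23.6 CPM on the normal and 14.0 to 26.4 CPM on the denervated side for 9 melanocyte markers, where Mitf was the most abundant and Mlana and Tyr were at the floor. For 8 fibroblast markers they were 13.4 to 22.5 CPM and 16.96 to 22.2 CPM. Vim, which made up most of this sum, was called as higher without animal 890 and without animal 899 but not with all 3, while the collagen genes Col1a2, Col1a1 and Col3a1 had lower means on the denervated side, at 1.29 and 0.607 CPM, 1.17 and 0.444 CPM, and 0.371 and 0.0485 CPM. Of these, Col1a2 was not called and the others did not pass the filter on low counts. The 10 myeloid and Langerhans cell markers summed to 321 to 404 CPM and 363 to 424 CPM. The denervated sum was above the normal one in 3 of 3 animals. Epcam, which keratinocytes of the hair follicle also express, had the highest level of this list (221 TPM). It was the largest part of the sum, at 203 ± 13.9 and 229 ± 19.2 CPM after TMM scaling. Cd74 (95.4 TPM) and H2-Aa (69.2 TPM), genes of antigen presentation, followed, against 40.4 TPM for Mbp. Ptprc, Csf1r, Itgax and Lyz2 stood at only 0.720, 1.81, 0.472 and 0.134 TPM. Itgax, Cd68 and Lyz2 had lower means on the denervated side, and the other members had higher ones. Cd207, the langerin gene that defines Langerhans cells, stood at 20.3 TPM. None of the 9 tested members was called by edgeR with the block, where Cd74 and Epcam had an unadjusted p below 0.05 (18.2% of all tested genes did), or by DESeq2 with the block. Without animal 890, however, Cd74 and H2-Aa were called as higher, and without animal 899 Cd74 was, in fits that called 3.11% and 7.74% of all tested genes. Golli transcripts of Mbp are known in cells of the immune system as well, and the part of such cells in the level of Mbp was not tested.

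Regulators that control myelin genes in Schwann cells and oligodendrocytes moved in part. Of 31 genes in this list, 23 entered the test, and 5 were called as higher and 0 as lower by edgeR with the block, where 2.88% of all tested genes were called as higher. Their median log2 fold change was 0.00. The list was made with earlier results of these libraries known, so its count is not independent evidence of a direction. Tead4 and Tead1, DNA-binding partners of YAP and TAZ that act on Pmp22 in Schwann cells, went from 8.65 ± 1.74 to 15.04 ± 2.54 CPM and from 99.3 ± 8.995 to 125 ± 7.91 CPM (adjusted p = 0.0236 and 0.0357 with the block, 0.166 and 0.199 without it). Wwtr1, which encodes TAZ, went from 276 ± 11.5 to 340 ± 5.68 CPM and Sox9, a factor of gliogenesis and of hair follicle stem cells, from 46.4 ± 9.98 to 59.5 ± 16.6 CPM (adjusted p = 0.0459 and 0.0442 with the block, 0.173 and 0.492 without it). Nrg1, the growth factor gene whose axonal product drives myelination, went from 36.0 ± 11.5 to 71.7 ± 16.9 CPM (adjusted p = 0.00196 with the block, 0.165 without it).

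The number called in this list depended on the setting. It was 2 with library totals, 3 without animal 890, 2 without animal 892, and 6 without animal 899, 5 of them higher and 1 lower. DESeq2 with the block called 3, and edgeR without the block called 0. The most abundant regulators were Jun (1275 TPM), Yap1 (166 TPM) and Srebf2 (128 TPM), and Yap1 stood at 374 ± 30.2 and 372 ± 13.2 CPM (log2 fold change −0.01 ± 0.08 SE). Myrf, Nkx6-2, Olig2, Pou3f2 and Rxrg, which act in oligodendrocytes or Schwann cells, were at the floor.

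The genes with the profile most like each called member were sought among 8592 genes with a mean of at least 10 CPM. Likeness was the root-mean-square difference between log2 CPM profiles over the 6 libraries, each centred on its own mean. The profiles hold the side difference known when the genes were chosen, and the nearest of many candidates lie below the median by selection. The neighbours are therefore given as a description. Mbp was nearest to Furin (0.05), a proprotein convertase gene, Rgs2 (0.05), a regulator of G protein signalling, and Abhd2 (0.05), against a median of 0.24 over the candidates. Emp1 was nearest to the forkhead factor gene Foxp1 (0.04), the unfolded protein sensor gene Atf6 (0.04) and Osmr (0.04), the receptor gene for oncostatin M, with a median of 0.25. Pmp22 was nearest to Epop (0.06), Srfbp1 (0.08) and Fnip1 (0.10), with a median of 0.37. Among the members themselves, Mbp and Emp1 were closest at 0.12, Pmp22 lay 0.22 from Emp1 and 0.26 from Mbp, and Emp2 lay farthest from Pmp22 at 0.40.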

How the data were processed

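Poly(A) RNA of 6 libraries was analysed, 3 per side, paired by the animal number in the sample titles. Per the labels' protocols, each mouse gave both of its libraries. Across genes, the deviations of a library from its group mean correlated with those of the same animal's other library at 0.369, 0.371 and 0.453, and with those of other animals at −0.280 to −0.0521. The authors deposited raw counts per gene and a table of TPM. Salmon's per-sample files hold TPM, estimated counts and mean transcript lengths per gene, per the file headers. Their deposited comparison holds log2 fold changes with their standard errors and test statistics (used here as a score only), p-values, adjusted p-values and mean normalised signal per side. STAR 2.6.1a, Salmon 0.11.2 and the build mm10 are listed in the submitters' processing notes. The library kit marks strand, per the labels' protocols. Neither the annotation nor the counter and its strand setting is given in the sources used here.

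The main test was edgeR 4.0.16 (R 4.3.3; quasi-likelihood, TMM, filterByExpr with a minimum count of 10 and a minimum total of 15) of denervated against normal with the animal as block, Benjamini-Hochberg adjusted over all tested genes. It was checked on simulated data. The SE is the size of the log2 fold change divided by the root of the F statistic, and intervals are 95% intervals from it. DESeq2 1.42.0 (adjusted p-values given as NA stayed NA), limma 3.58.1 on log2(TPM + 1) and log2(TPM + 0.1), edgeR on estimated counts after rounding, other scalings and filters, no block, and each animal or library left out were alternatives. On the log2(TPM + 1) scale fold changes of low genes are understated. A 3-count floor limits low genes.

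The genes, the lists and the motifs were chosen with earlier results of these data known. The rule for named genes took all 8 genes, up to 6 called genes and the 3 most abundant of each list, and the 3 genes nearest in profile to Mbp, Pmp22 and Emp1, and not all of these are described. Genes named beyond it, for markers at the floor and for calls under an alternative, were chosen after their values were seen. Coordinates are from GENCODE M21 on mm10, matched by symbol for 8 of 8 genes. P-values of the fits rest on at most 3 animals per side, and the variance of a gene is estimated partly from other genes. They therefore do not measure the spread between animals alone.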

Additional observations from a re-analysis of the deposited data

How the results depend on the processing

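Mbp, Pmp22, Emp1 and Emp2 kept the sign of their log2 fold change in all 20 alternatives, with ranges of 0.32 to 0.41, 0.36 to 0.75, 0.30 to 0.47 and −0.19 to −0.10. Mbp was called in 8 of 12 alternatives with the replicate block, Pmp22 in 9, Emp1 in 6 and Emp2 in 0. Without the block these genes were called in 1 of 8, 1 of 8, 1 of 8 and 0 of 8 alternatives, the 1 being DESeq2 on all libraries. The number of genes called over the whole table was 426 with the block and 0 without the replicate block in edgeR. It was 987 with no filter on low counts, and 1 in each of the 3 limma fits on TPM (log2(TPM + 1), log2(TPM + 0.1), and log2(TPM + 1) with no filter); the cause was not tested. Leaving out each animal gave 248 to 976 genes with the block (248 without animal 892, 976 without animal 899), and leaving out each library without the block gave 0 to 42 (42 without the normal library of animal 899). Library totals gave 290 genes, 172 higher and 118 lower, against 355 higher and 71 lower with TMM factors. The number of members at or above the level threshold in every library was 4 with TPM, 0.5 CPM or 2 CPM as well. The summed level of the PMP22 and claudin-like relatives differed by a log2 ratio of −0.06 with library totals and 0.0025 with TMM scaling. Of 60 alternatives for Mbp, Pmp22 and Emp1, 34 lost the call and 26 kept it. The sign-flip test of transcript lengths was chosen after seeing the data. Depth limits Sox10, S100b, Mag and Cnp, for which a difference between sides was not detectable.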
